A study of Mus musculus with 110 samples.

Results

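Bile acid synthesis and transport genes were described in the mouse liver under a methionine-restricted diet (MetR), under cold exposure (CE) and under both. The group holds 10 genes that were chosen by name: Cyp7a1, Cyp8b1, Cyp27a1 and Cyp7b1 of the synthesis pathways, Slc27a5 and Baat of conjugation, Abcb11 and Slc10a1 of transport, and the nuclear receptors Nr1h4 and Nr0b2. They are 10 of the 56884 rows of the liver count table, and all 10 were among the 22143 rows with at least 10 counts over the 28 liver libraries, which were the rows tested. Bulk RNA was sequenced from 28 male C57BL/6N mice, 16 weeks old at the end and housed singly, in 4 groups of 7, each liver library coming from its own mouse. Both diets held 0% cysteine, so the control mice lacked cysteine too, and the labels give 0.86% methionine for the control diet (Ctrl) and 0.12% for MetR. Ctrl_RT and MetR_RT mice ate their diet for 7 days at 22 °C. Ctrl_CE and MetR_CE mice ate it for the same 7 days at 22 °C and then spent 24 h at 4 °C, so that in all they had 8 days of diet, and a cold mouse differed from its control by that additional day as well as by temperature.

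Bile acids are made from cholesterol in hepatocytes. The classic pathway starts with Cyp7a1, and the acidic pathway starts with Cyp27a1 and goes on through Cyp7b1, while Cyp8b1 decides how much of the product is cholic acid. The acids are then joined to taurine, pumped into bile by Abcb11 and taken back up from portal blood by Slc10a1, and the bile acid receptor Nr1h4 induces the repressor Nr0b2, which lowers Cyp7a1 and Cyp8b1 transcription.

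Levels are given as CPM, a gene's count as a share of the library's total, which was scaled with TMM factors. Fold changes are on the log2 scale with their standard error (SE) from edgeR's quasi-likelihood fit to all 28 libraries, and a gene is said to have risen or fallen where its Benjamini-Hochberg adjusted p over the 22143 rows was under 0.05. CPM is not divided by gene length, so levels are compared between groups and not between genes. Total counts ran from 6987895 to 33444374 per library, and the group medians were 14122737 (Ctrl_RT), 17153587 (Ctrl_CE), 16562449 (MetR_RT) and 12654213 (MetR_CE). The lowest count of a member in any liver library was 32, of Cyp7a1. Of 8 hepatocyte markers none was at 0 in any liver library, and Alb alone had 20470567 counts over the 28 libraries. Counts above 0 do not by themselves set liver apart, since Alb was read in fat libraries of the series too. In level, the 8 markers summed to at least 50278 CPM in every liver library, while Alb was at most 149.9 CPM in any fat library.

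With cold and restriction together, 6 of the 10 genes differed from Ctrl_RT, while 4 did in the cold on the control diet and 3 under restriction at 22 °C. Cyp7b1 and Slc27a5 were lower, and Slc10a1 was higher, than in Ctrl_RT in all 3 of these comparisons. Nr0b2 was lower in the cold on either diet, and Cyp27a1 and Abcb11 were lower in MetR_CE. Cyp7a1, Cyp8b1, Baat and Nr1h4 passed the test in none of the 6 comparisons made. In Ctrl_CE 1 member rose and 3 fell, beside 14.7% of all rows tested that rose and 14.2% that fell. Under MetR_RT 1 rose and 2 fell, beside 10.1% and 8.70% of all rows. In MetR_CE 1 rose and 5 fell, beside 15.2% of all rows in each direction. These 3 contrasts share their Ctrl_RT libraries. Cold under restriction (MetR_CE against MetR_RT) gave 1 rise and 4 falls, beside 8.42% and 9.58% of rows, and restriction in the cold (MetR_CE against Ctrl_CE) gave 1 rise and 2 falls, beside 5.50% and 6.62%. The interaction, which is the effect of MetR in the cold minus its effect at 22 °C, was called for 1 member, Cyp7b1, upwards, beside 0.655% of rows called upwards and 1.10% called downwards. In the 3 contrasts against Ctrl_RT the single rise was near the share for all rows, and the falls were above theirs. The 22143 rows include rows with few counts, however. With a stricter filter on counts (filterByExpr), 6434 of 13748 rows were called in either direction in Ctrl_CE, 4298 in MetR_RT and 6590 in MetR_CE. Beside these, the 4, 3 and 6 of 10 members called here are not read as an excess. The median log2 fold change of the 10 members was -0.05 in Ctrl_CE, -0.02 in MetR_RT and -0.14 in MetR_CE against Ctrl_RT, beside -0.01, 0.00 and -0.04 for all rows.

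**Figure D1:**
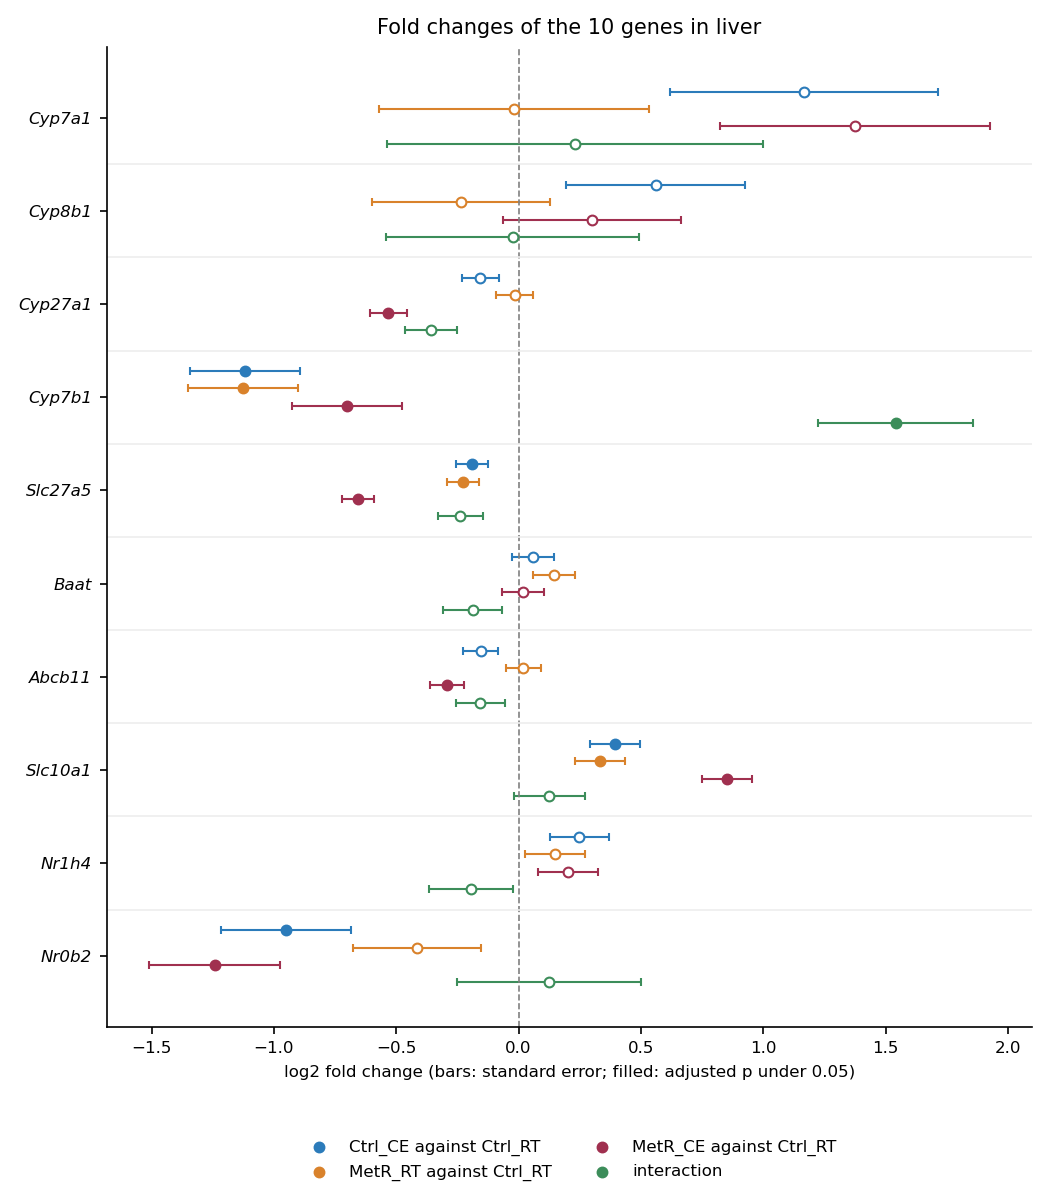
Log2 fold changes of the 10 genes in liver for Ctrl_CE, MetR_RT and MetR_CE against Ctrl_RT and for the interaction of diet and temperature (n = 7 mice per group). Points are estimates, bars are standard errors and filled points have an adjusted p under 0.05: Slc10a1 is right of 0 and Cyp7b1 and Slc27a5 are left of 0 with filled points in all 3 comparisons, and Cyp7b1 alone has a filled interaction, at 1.54.

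Promoter sequence is shown for the genes on which the transport and receptor results turn. RefSeq windows of GRCm38.p6, the 250 bases before the start site, were at hand for 6 of the 10 genes (Cyp27a1, Abcb11, Nr0b2, Cyp8b1, Nr1h4 and, with 2 start sites, Slc10a1). Both strands were searched for the nuclear receptor half-site AGGTCA, for its inverted repeat AGGTCANTGACCT, to which the receptor encoded by Nr1h4 binds with its partner, for the direct repeat AGGTCANAGGTCA, and for TCAAGG, the core of the Nr5a2 site. Only exact matches were counted, N standing for any base. Each repeat holds a half-site, so a window with a repeat counts for both. Capitals mark a match, TGACCT being AGGTCA on the other strand, and every sequence is written in the direction of transcription.
Nr0b2, chr4:133553126-133553375, plus strand: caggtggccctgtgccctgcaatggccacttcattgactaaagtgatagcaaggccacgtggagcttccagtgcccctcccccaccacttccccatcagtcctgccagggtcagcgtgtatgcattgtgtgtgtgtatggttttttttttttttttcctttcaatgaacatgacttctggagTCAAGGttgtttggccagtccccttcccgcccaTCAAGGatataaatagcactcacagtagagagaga
Abcb11, chr2:69342617-69342866, minus strand: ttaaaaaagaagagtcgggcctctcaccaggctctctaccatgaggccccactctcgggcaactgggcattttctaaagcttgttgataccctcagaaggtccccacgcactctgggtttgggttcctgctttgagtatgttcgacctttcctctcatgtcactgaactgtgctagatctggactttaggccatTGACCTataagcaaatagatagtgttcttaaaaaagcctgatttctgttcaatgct
Slc10a1, chr12:80968706-80968955, minus strand: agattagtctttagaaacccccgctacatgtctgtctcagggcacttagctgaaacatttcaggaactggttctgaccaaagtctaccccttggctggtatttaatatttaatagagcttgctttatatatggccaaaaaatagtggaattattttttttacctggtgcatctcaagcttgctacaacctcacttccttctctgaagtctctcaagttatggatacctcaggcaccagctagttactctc
The Nr0b2 window held TCAAGG 2 times, at -68 and -35 from the start site, and 12.46% of all 32851 windows of this length hold it at least 1 time. The Abcb11 window held 1 half-site, at -56, which 14.02% of windows hold. No match stood in the Slc10a1 window shown, and the second Slc10a1 window held 1 half-site at -87. Neither repeat had an exact match in any of the members' windows, against 0.006088% of all windows for the inverted and 0.03348% for the direct repeat. Inexact repeats were not searched for. The Abcb11 window reads aggccatTGACCT around its half-site, which differs from the inverted repeat in 1 base. Of the others, the Nr1h4 window held 1 half-site at -214, and the Cyp27a1 and Cyp8b1 windows held no match. The Nr1h4 window (chr10:89506659-89506908, minus strand) lies inside the annotated gene, before an inner start site, and the bases before the gene's outer end were not searched.

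Cyp7a1 (chr4:6265612-6275633, minus strand, GRCm38) encodes the rate-limiting cholesterol hydroxylase of the classic pathway. Its level ran from 2.07 to 76.97 CPM (median 19.9) in Ctrl_RT, from 8.01 to 204.6 (median 38.2) in Ctrl_CE, from 16.5 to 51.2 (median 22.9) in MetR_RT and from 20.97 to 201.7 (median 65.4) in MetR_CE. The 4 groups overlapped, the 2 highest libraries were both cold ones, and mice of the Ctrl_RT group differed by 37.3-fold among themselves. Means were 29.02 ± 24.4, 64.4 ± 66.4, 28.6 ± 13.3 and 75.004 ± 59.8 CPM (SD, n = 7). The estimates in the cold were above 0 on both diets, with a log2 fold change of 1.16 ± 0.55 (SE) for Ctrl_CE and of 1.38 ± 0.55 for MetR_CE, but neither passed (adjusted p = 0.114 and 0.0578). Under MetR_RT the estimate was -0.02 ± 0.55, with a 95% interval from -1.10 to 1.06, so that a change as large as either bound could not be told from none with this spread. Cold under restriction gave 1.396 ± 0.55 (adjusted p = 0.0769), and the interaction was 0.23 ± 0.77. The call depended on single mice. Without Ctrl_RT replicate 5, the library at 76.97 CPM, both cold contrasts passed (Ctrl_CE 1.64, adjusted p = 0.0272, and MetR_CE 1.84, adjusted p = 0.0124), and without Ctrl_CE replicate 4 they passed too (1.37, adjusted p = 0.0471, and 1.38, adjusted p = 0.0361). Without Ctrl_CE replicate 1, the library at 204.6 CPM, the Ctrl_CE estimate was 0.52 (adjusted p = 0.489), while that of MetR_CE was 1.38 (adjusted p = 0.0334), and without MetR_CE replicate 1 the latter was 1.54 (adjusted p = 0.0361). MetR_CE against MetR_RT passed without Ctrl_RT replicate 7 (adjusted p = 0.0497), Ctrl_CE replicate 1 (adjusted p = 0.0460) or Ctrl_CE replicate 4 (adjusted p = 0.0485).

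Cyp8b1 (chr9:121914356-121916305, minus strand, a gene of 1 exon) encodes the sterol hydroxylase of cholic acid synthesis. It was even among the untreated mice, from 203.4 to 272.5 CPM (median 261.9), and uneven in the other groups, from 30.7 to 743 (median 386) in Ctrl_CE, from 150.2 to 396 (median 177) in MetR_RT and from 142 to 444 (median 356) in MetR_CE. The coefficient of variation was 9.96% in Ctrl_RT against 65.4% in Ctrl_CE, and it was 41.5% in MetR_RT and 37.96% in MetR_CE. In Ctrl_CE 5 of 7 libraries were above every Ctrl_RT library and the other 2 were below every one. Log2 fold changes were 0.56 ± 0.37 for Ctrl_CE (adjusted p = 0.273), -0.24 ± 0.37 for MetR_RT (adjusted p = 0.725) and 0.30 ± 0.37 for MetR_CE (adjusted p = 0.593), and none passed. The 95% intervals ran from -0.16 to 1.28, from -0.95 to 0.48 and from -0.42 to 1.02. Without Ctrl_CE replicate 4, the library at 30.7 CPM, the Ctrl_CE estimate was 0.77 and passed (adjusted p = 0.0345). That library was also the lowest of the Ctrl_CE group in Cyp7a1, Slc27a5, Slc10a1 and Nr1h4. Its total count (11943605) and its TMM factor (0.899) were the lowest of the group as well.

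Cyp27a1 (chr1:74713574-74737892, plus strand) encodes the mitochondrial sterol hydroxylase that opens the acidic pathway and also hydroxylates the side chain in the classic one. It stood at 369 to 455 CPM (median 409.9) in Ctrl_RT, 283.2 to 441 (median 358) in Ctrl_CE, 373 to 436 (median 405) in MetR_RT and 253.5 to 328 (median 289.9) in MetR_CE. Every MetR_CE library was below every library of both room temperature groups, while Ctrl_CE overlapped with all other groups. It fell by 0.53 on the log2 scale in MetR_CE against Ctrl_RT (SE 0.08, adjusted p = 1.88e-06), by 0.52 against MetR_RT (SE 0.08, adjusted p = 1.31e-05) and by 0.38 against Ctrl_CE (SE 0.08, adjusted p = 0.000992). Its estimate was -0.16 ± 0.07 in Ctrl_CE (adjusted p = 0.120) and -0.02 ± 0.07 in MetR_RT (adjusted p = 0.923). The interaction of -0.36 ± 0.11 did not pass (adjusted p = 0.0737), whereas it passed with DESeq2 (-0.35, adjusted p = 0.0224) and without Ctrl_CE replicate 3 (-0.41, adjusted p = 0.0233). Without Ctrl_CE replicate 1 the Ctrl_CE contrast passed (-0.20, adjusted p = 0.0430).

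Cyp7b1 (chr3:18071950-18243338, minus strand) encodes the oxysterol hydroxylase that follows Cyp27a1. Its level was 284.5 to 835 CPM (median 617) in Ctrl_RT, 154 to 426 (median 240.0) in Ctrl_CE, 192 to 336 (median 254.3) in MetR_RT and 267.6 to 594 (median 291.5) in MetR_CE. Of the Ctrl_RT libraries 5 stood at 492 CPM or more, and the other 2, replicates 2 and 5, at 285.9 and 284.5, within the range of the treated groups. Means were 558 ± 213, 257.2 ± 86.4, 255.8 ± 52.4 and 343 ± 115 CPM (SD, n = 7). It fell by 1.12 on the log2 scale in Ctrl_CE (SE 0.23, adjusted p = 0.000314) and by 1.12 in MetR_RT (SE 0.23, adjusted p = 0.000512). In MetR_CE it fell by 0.70 (SE 0.22, adjusted p = 0.0161). The interaction was 1.54 ± 0.32 (adjusted p = 0.0100), positive in each of the 28 fits that left out 1 library, from 1.35 to 1.71, and past the test in all of them. MetR_CE did not differ past the test from MetR_RT (0.42 ± 0.22, adjusted p = 0.209) or from Ctrl_CE (0.42 ± 0.22, adjusted p = 0.252). Without Ctrl_RT replicate 4, the library at 835 CPM, the fall in MetR_CE was no longer called (-0.58, adjusted p = 0.0518).

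**Figure D2:**
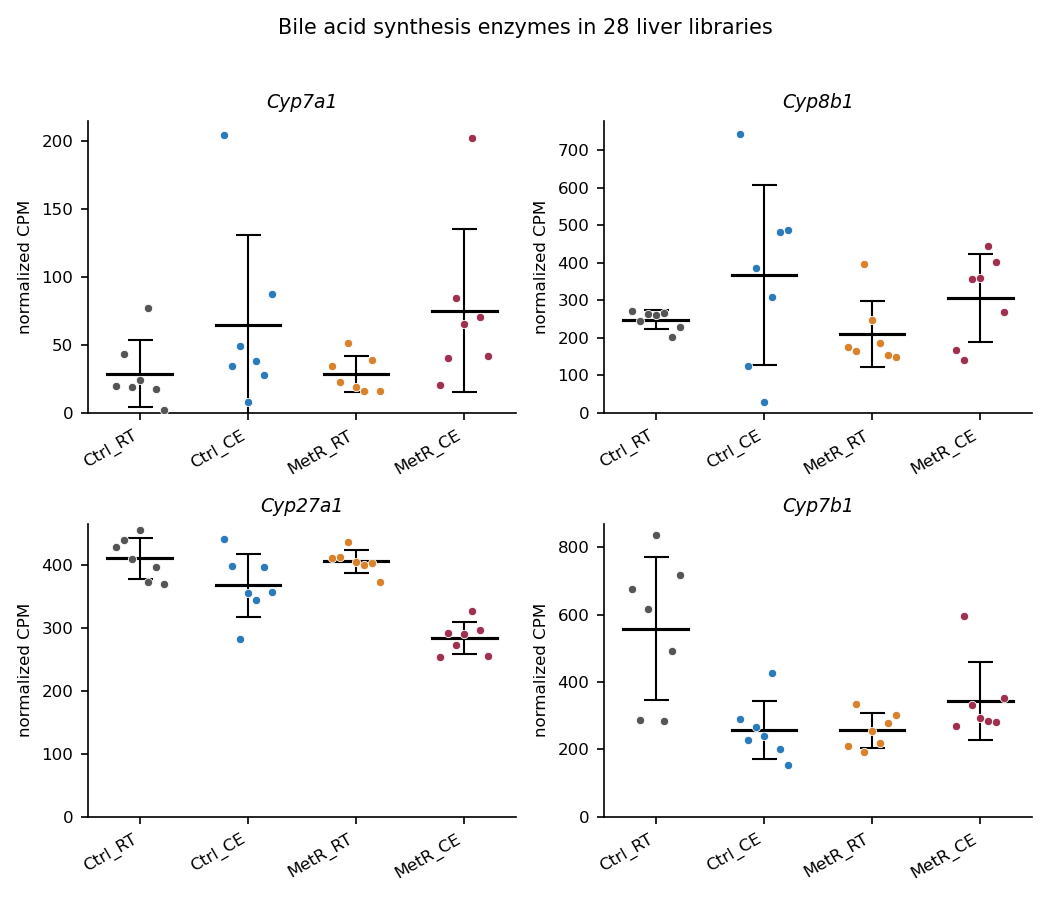
Normalized CPM of the 4 synthesis enzymes in each of the 28 liver libraries, with the group mean (line) and SD (bars, n = 7), axes starting at 0, the lower SD bar of Cyp7a1 in Ctrl_CE being cut there. Cyp7a1 reaches 204.6 and 201.7 CPM in single cold libraries, Cyp8b1 spreads from 30.7 to 743 CPM in Ctrl_CE against 203.4 to 272.5 in Ctrl_RT, Cyp27a1 is lowest in MetR_CE, and Cyp7b1 is highest in Ctrl_RT.

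Slc27a5 (chr7:12988346-12998192, minus strand) encodes the bile acid CoA ligase, which activates bile acids before conjugation. It ran from 817 to 996.7 CPM (median 878) in Ctrl_RT, from 715 to 845 (median 798) in Ctrl_CE, from 682 to 843 (median 779) in MetR_RT and from 523 to 667 (median 559) in MetR_CE. The MetR_CE libraries were below every library of the other 3 groups, and the 2 single treatments overlapped with each other and with Ctrl_RT. It fell by 0.19 on the log2 scale in Ctrl_CE (SE 0.06, adjusted p = 0.0264), by 0.23 in MetR_RT (SE 0.06, adjusted p = 0.0125) and by 0.66 in MetR_CE (SE 0.07, adjusted p = 5.01e-09). From MetR_RT to MetR_CE it fell by 0.43 (adjusted p = 2.07e-05), and from Ctrl_CE to MetR_CE by 0.47 (adjusted p = 1.66e-05). The interaction of -0.24 ± 0.09 did not pass (adjusted p = 0.183). The fall in Ctrl_CE was lost without any 1 of Ctrl_RT replicates 1, 5 and 6 or Ctrl_CE replicates 2, 4 and 5 (adjusted p up to 0.0775), and with only the 2 groups in the fit (adjusted p = 0.0532).

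Baat (chr4:49489422-49506557, minus strand) encodes the transferase that joins the activated bile acid to taurine or glycine. Group means were 276.9 ± 25.1, 288.4 ± 42.4, 306 ± 38.1 and 280.3 ± 21.5 CPM (SD, n = 7) in Ctrl_RT, Ctrl_CE, MetR_RT and MetR_CE, and all groups overlapped. Its log2 fold changes were 0.06 ± 0.09, 0.15 ± 0.09 and 0.02 ± 0.09 against Ctrl_RT (adjusted p = 0.667, 0.265 and 0.905). The 95% intervals ran from -0.11 to 0.23, from -0.02 to 0.31 and from -0.15 to 0.19, and none of the 3 estimates reached the size of the fall of Slc27a5 in MetR_CE, the enzyme of the step before.

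Abcb11 (chr2:69238282-69342616, minus strand) encodes the bile salt export pump of the canalicular membrane. It stood at 613 to 789.8 CPM (median 688) in Ctrl_RT, 564 to 715 (median 604) in Ctrl_CE, 643 to 772 (median 700.0) in MetR_RT and 496 to 682 (median 567) in MetR_CE. In MetR_CE 6 of 7 libraries were below every Ctrl_RT library, the exception being replicate 1 at 682 CPM. It fell by 0.29 on the log2 scale in MetR_CE against Ctrl_RT (SE 0.07, adjusted p = 0.00181) and by 0.31 against MetR_RT (SE 0.07, adjusted p = 0.00201). Estimates were -0.15 ± 0.07 in Ctrl_CE (adjusted p = 0.103) and 0.02 ± 0.07 in MetR_RT (adjusted p = 0.901). The antisense gene Gm13613 covers 136 of its exon bases (2.64%), and the strand setting of the counting is not given in the sources used here, so reads of the 2 genes may not be told apart there.

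Slc10a1 (chr12:80953183-80968705, minus strand) encodes the sodium-dependent bile acid uptake carrier of the sinusoidal membrane, and it was the member that rose. Its level was 409 to 689 CPM (median 506) in Ctrl_RT, 547 to 795 (median 751) in Ctrl_CE, 569 to 735 (median 656) in MetR_RT and 783 to 1052 (median 949) in MetR_CE. All MetR_CE libraries were above all libraries of both room temperature groups, and 6 of 7 were above every Ctrl_CE library. Log2 fold changes were 0.39 ± 0.10 in Ctrl_CE (adjusted p = 0.00377), 0.33 ± 0.10 in MetR_RT (adjusted p = 0.0206) and 0.85 ± 0.10 in MetR_CE (adjusted p = 1.45e-07), the last a 1.81-fold level. MetR_CE was higher than MetR_RT by 0.52 (adjusted p = 0.000449) and than Ctrl_CE by 0.46 (adjusted p = 0.00283), and the interaction was 0.13 ± 0.14 (adjusted p = 0.729). The rise in MetR_RT was lost without any 1 of Ctrl_RT replicates 1, 6 and 7 or MetR_RT replicates 4 and 5 (adjusted p up to 0.0646).

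Groups that did not overlap were seen for 3 members in MetR_CE against Ctrl_RT. Slc10a1 was the 1 that lay higher, beside 6.31% of all rows tested, and Cyp27a1 and Slc27a5 were the 2 that lay lower, beside 5.65%. The same 3 did not overlap between MetR_CE and MetR_RT, beside 3.64% of rows that lay higher and 3.69% that lay lower. Slc27a5 alone did not overlap between MetR_CE and Ctrl_CE, beside 2.04% and 1.59% of rows. In Ctrl_CE against Ctrl_RT the number was 0 of 10, beside 4.01% and 3.49% of rows, and in MetR_RT against Ctrl_RT it was 0 of 10, beside 2.99% and 2.52%.

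Nr1h4 (chr10:89454234-89533585, minus strand) encodes the bile acid receptor FXR. Means were 132 ± 30.7, 157 ± 24.5, 147 ± 21.3 and 152 ± 16.8 CPM (SD, n = 7) in Ctrl_RT, Ctrl_CE, MetR_RT and MetR_CE, and the groups overlapped. Its log2 fold changes of 0.25 ± 0.12, 0.15 ± 0.12 and 0.20 ± 0.12 did not pass (adjusted p = 0.131, 0.453 and 0.231), with 95% intervals that reached 0.49, 0.39 and 0.44. In Ctrl_CE the estimate passed without Ctrl_RT replicate 5 (0.35, adjusted p = 0.0269) and without Ctrl_CE replicate 4 (0.32, adjusted p = 0.0352).

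Nr0b2 (chr4:133553376-133556536, plus strand) encodes SHP, a repressor that lacks a DNA-binding domain. It ran from 21.8 to 91.7 CPM (median 65.7) in Ctrl_RT, from 17.5 to 60.2 (median 27.7) in Ctrl_CE, from 37.8 to 66.8 (median 49.7) in MetR_RT and from 14.5 to 52.95 (median 25.7) in MetR_CE. The room temperature groups were the higher ones, but the lowest Ctrl_RT library, replicate 5 at 21.8 CPM, lay within both cold groups, so that all ranges overlapped. That library also had the highest Cyp7a1 (76.97 CPM), the highest Slc10a1 (689) and the lowest Cyp7b1 (284.5) of the Ctrl_RT group. Nr0b2 fell by 0.95 on the log2 scale in Ctrl_CE (SE 0.26, adjusted p = 0.00667) and by 1.24 in MetR_CE (SE 0.27, adjusted p = 0.000553). The MetR_RT estimate was -0.42 ± 0.26 (adjusted p = 0.308), the difference of MetR_CE from Ctrl_CE was -0.29 ± 0.27 (adjusted p = 0.556), and the interaction was 0.12 ± 0.37 (adjusted p = 0.913). From MetR_RT to MetR_CE it fell by 0.83 (SE 0.27, adjusted p = 0.0288), a call that was lost without MetR_RT replicate 1 or any 1 of MetR_CE replicates 3, 4, 5 and 6 (adjusted p up to 0.0776).

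**Figure D3:**
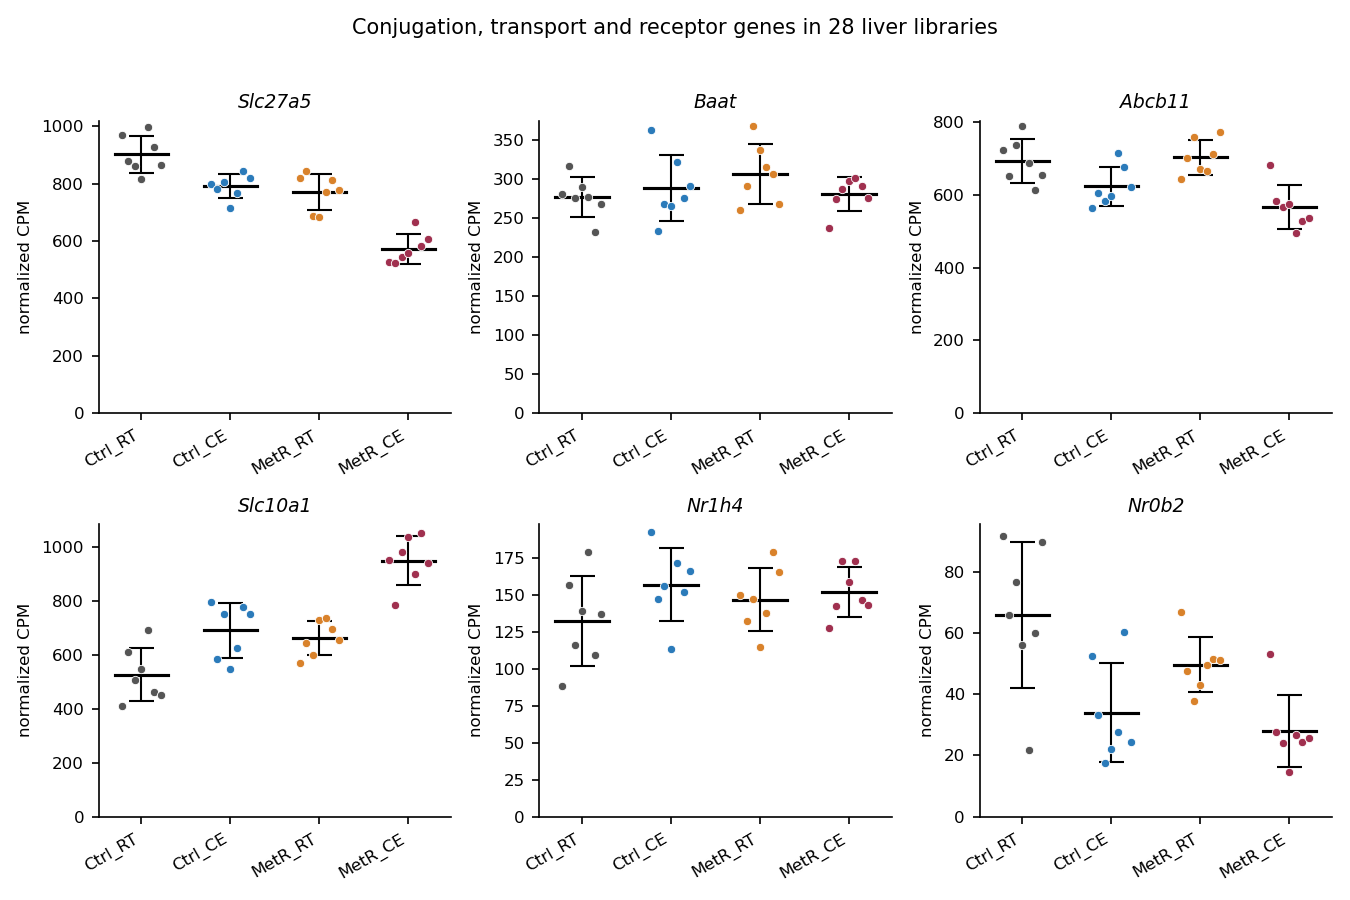
Normalized CPM of the conjugation, transport and receptor genes in each of the 28 liver libraries, with the group mean (line) and SD (bars, n = 7) and axes starting at 0. The 7 MetR_CE libraries have the lowest Slc27a5, 523 to 667 CPM, and the highest Slc10a1 mean, 948 CPM, while Baat and Nr1h4 overlap in all groups and Nr0b2 is lower in both cold groups.

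Mice of 1 group differed from each other in several of these genes, and these differences were compared between genes after the group mean was taken away. Of the 45 pairs of the 10 genes, 2 passed a permutation test within groups on Pearson's r and 3 on Spearman's rho (100000 permutations, two-sided, adjusted over the 45 pairs), and Cyp7a1 with Cyp8b1 was the 1 pair that passed on both. For a pair that passed, r is also given without 2 libraries, those farthest from the median in the deviations of its first-named gene alone. Cyp7a1 and Cyp8b1 varied together over the 28 libraries, with Pearson's r = 0.62 (p = 0.00011, adjusted p = 0.00495) and Spearman's rho = 0.58 (p = 0.0015, adjusted p = 0.0225), and r was 0.59 without the 2 libraries farthest from the median. The correlation had the same sign in all 4 groups, at 0.43 and 0.48 in the room temperature groups Ctrl_RT and MetR_RT and at 0.85 and 0.81 in Ctrl_CE and MetR_CE, and the pair passed in 27 of the 28 analyses that left out 1 library. Cyp8b1 and Slc10a1 gave r = 0.53 (p = 0.00175, adjusted p = 0.0394), but rho = 0.49 did not pass (p = 0.00801, adjusted p = 0.0721), r was 0.38 without the 2 farthest libraries, the sign was negative in MetR_RT at -0.20, and the pair passed in 20 of the 28 analyses that left out 1 library. Cyp8b1 and Baat passed on rho = 0.67 (p = 0.0002, adjusted p = 0.0090), while r = 0.57 did not (p = 0.00656, adjusted p = 0.0594), and r was 0.61 without the 2 farthest libraries. Cyp7a1 and the receptor gene Nr1h4 likewise passed on rho = 0.65 (p = 0.00043, adjusted p = 0.00967) and not on r = 0.57 (p = 0.00660, adjusted p = 0.0594), and r was 0.66 without the 2 farthest libraries. Both of these pairs had a positive r in all 4 groups, and each passed on r in 2 of the 28 analyses that left out 1 library. For Cyp7a1 and the repressor Nr0b2, r was -0.28 (p = 0.233, adjusted p = 0.455) and rho was -0.23 (p = 0.260, adjusted p = 0.493), with -0.68 in Ctrl_RT and -0.11 in MetR_RT, 0.32 in Ctrl_CE and -0.52 in MetR_CE.

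**Figure D4:**
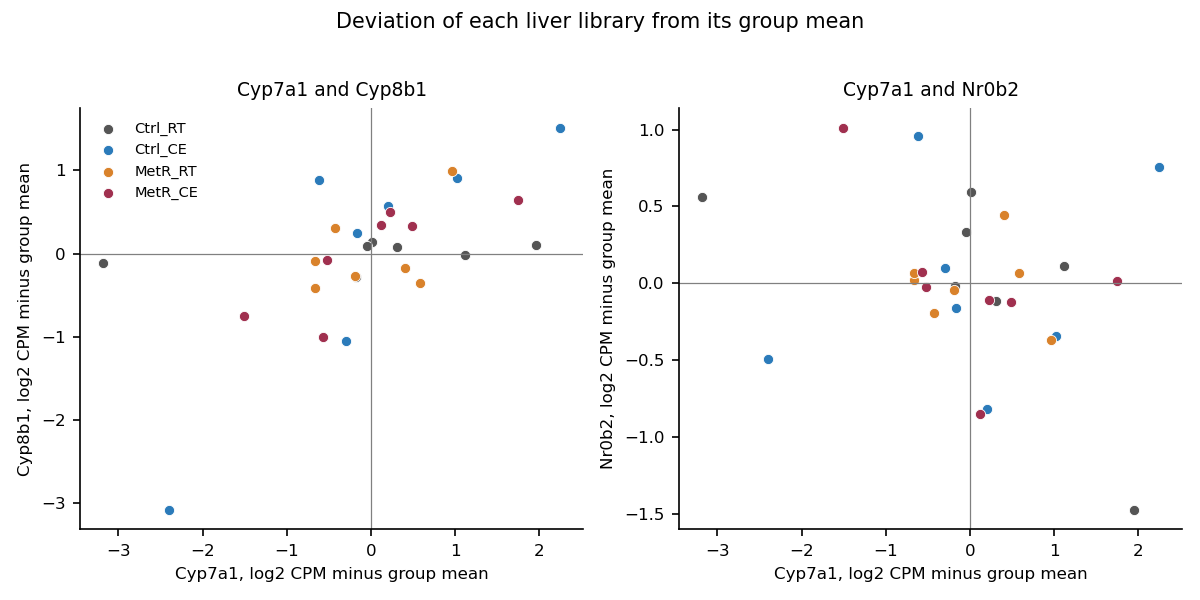
Deviation of each of the 28 liver libraries from its group mean, in log2 CPM, for Cyp7a1 against Cyp8b1 (left) and Cyp7a1 against Nr0b2 (right), coloured by group. The left cloud rises from lower left to upper right (r = 0.62), and the right cloud has no such direction (r = -0.28).

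The 3 genes most like each of 4 members in log2 CPM over the 28 libraries, among 12513 genes with a mean of at least 1 CPM, were taken as a description. For Cyp7a1 they were Kank3 (r = 0.73), Gabbr1 (0.71) and Med14 (0.71). Cyp8b1 was most like Ndufa10 (r = 0.74), a subunit of respiratory complex I, and the carboxylesterase Ces2e (0.74) and Fggy (0.73). Cyp7b1 was most like Aadat (r = 0.81), Lifr (0.79) and Ces4a (0.76). For Nr0b2 they were the long noncoding AC157910.3 (r = 0.87), 9430064I24Rik (0.82) and Gm22009 (0.81). With the group means removed, these 12 values lay between 0.62 and 0.77. The points share libraries and scaling, and 9430064I24Rik shares 1729 of its exon bases (64.8%) with Hsd3b7 on the other strand, an enzyme of the same pathway, and with the strand setting of the counting not given, reads of the 2 may not be told apart there.

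The other genes of the pathway were taken from lists written with earlier results of these data known. Counts of this and the later lists stand beside 14.7% of all rows tested that rose and 14.2% that fell in Ctrl_CE. Under MetR_RT the shares were 10.1% and 8.70%, and in MetR_CE 15.2% each way. With filterByExpr, 6434, 4298 and 6590 of 13748 rows were called in these 3 contrasts, so no count is read as an excess. Of 14 other synthesis enzymes, all tested, 3 rose and 4 fell in Ctrl_CE, 5 rose and 3 fell in MetR_RT, and 3 rose and 4 fell in MetR_CE. Cyp39a1, which hydroxylates an oxysterol from brain, had means of 35.9 CPM in Ctrl_RT and 54.8 in Ctrl_CE, and of 160.4 in MetR_RT and 215 in MetR_CE, with log2 fold changes of 0.61 ± 0.21, 2.16 ± 0.22 and 2.58 ± 0.22 (adjusted p = 0.0313, 1.95e-08 and 3.22e-10). It rose while Cyp7b1, the other oxysterol hydroxylase, fell. Cyp46a1, which makes that oxysterol, rose in MetR_RT from 1.98 to 5.03 CPM (1.31 ± 0.29, adjusted p = 0.00151). Cyp2c70, which makes the muricholic acids of mice, fell in all 3 contrasts, by 0.98 in Ctrl_CE, by 0.71 in MetR_RT and by 1.19 in MetR_CE (adjusted p = 0.00104, 0.0209 and 9.78e-05). Hsd3b7, the dehydrogenase after Cyp7a1, fell by 0.75 in Ctrl_CE and by 0.95 in MetR_CE (adjusted p = 0.000823 and 5.24e-05). Its MetR_RT estimate was -0.04 ± 0.16. The group means of Hsd3b7 were low, between 2.96 CPM (MetR_CE) and 5.72 CPM (Ctrl_RT). It shares 1729 exon bases with 9430064I24Rik on the other strand, where reads of these genes may not be told apart. How much of the fall belongs to Hsd3b7 itself was not tested. Akr1d1, the steroid reductase of the next steps, rose in all 3 contrasts, by 0.71, 0.54 and 0.72 (adjusted p = 0.000606, 0.0110 and 0.000423). Scp2, the thiolase of side chain shortening, fell by 0.67 in MetR_RT and by 0.50 in MetR_CE (adjusted p = 2.35e-05 and 0.000349).

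The list of other transport genes held 17, among them Abcb1a, a drug export pump, and Ephx1, an epoxide hydrolase. Of these 17, 8 rose and 1 fell in Ctrl_CE, 9 rose and 2 fell in MetR_RT, and 11 rose and 2 fell in MetR_CE. Beside them stand the rise of Slc10a1 in all 3 contrasts and the fall of Abcb11 in MetR_CE. The median log2 fold change of the list was 0.31, 0.54 and 0.74 in the 3 contrasts, beside -0.01, 0.00 and -0.04 for all rows. The uptake carrier Slco1a4 went from a mean of 6.38 CPM in Ctrl_RT to 12.4 in Ctrl_CE, and to 23.3 in MetR_RT and 32.003 in MetR_CE (0.98 ± 0.34, 1.84 ± 0.34 and 2.34 ± 0.34, adjusted p = 0.0294, 0.000182 and 2.36e-06). The basolateral export pump Abcc4 rose from 1.54 CPM to 3.96, 4.49 and 5.73 (1.33 ± 0.19, 1.53 ± 0.19 and 1.88 ± 0.19), with an interaction of -0.98 ± 0.26 (adjusted p = 0.0437). Abcb1a, a drug export pump, rose from 0.912 CPM to 2.56, 2.02 and 3.94 (1.47, 1.18 and 2.10, each with SE 0.25). Ephx1, microsomal epoxide hydrolase, rose by 0.75 ± 0.14, 1.42 ± 0.15 and 1.27 ± 0.14, with an interaction of -0.90 ± 0.20 (adjusted p = 0.0178). On the other side, Slc10a2, the carrier of ileum and bile duct cells, was at 15.4 CPM in Ctrl_RT and 15.5 in Ctrl_CE and fell to 5.44 in MetR_RT and 4.03 in MetR_CE (-1.50 ± 0.30 and -1.94 ± 0.31, adjusted p = 0.000416 and 1.03e-05). Slc51b fell in MetR_RT (-1.75 ± 0.54, adjusted p = 0.0202), from a mean of 0.455 CPM to 0.128, which is few reads. The other genes of the list that rose in MetR_CE, named here after their values were seen, were Abcc3, Abcg8, Abcg5, Abcc2, Slc10a5, Abcb4 and Slco1b2, and the other that fell was Atp8b1.

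**Figure D5:**
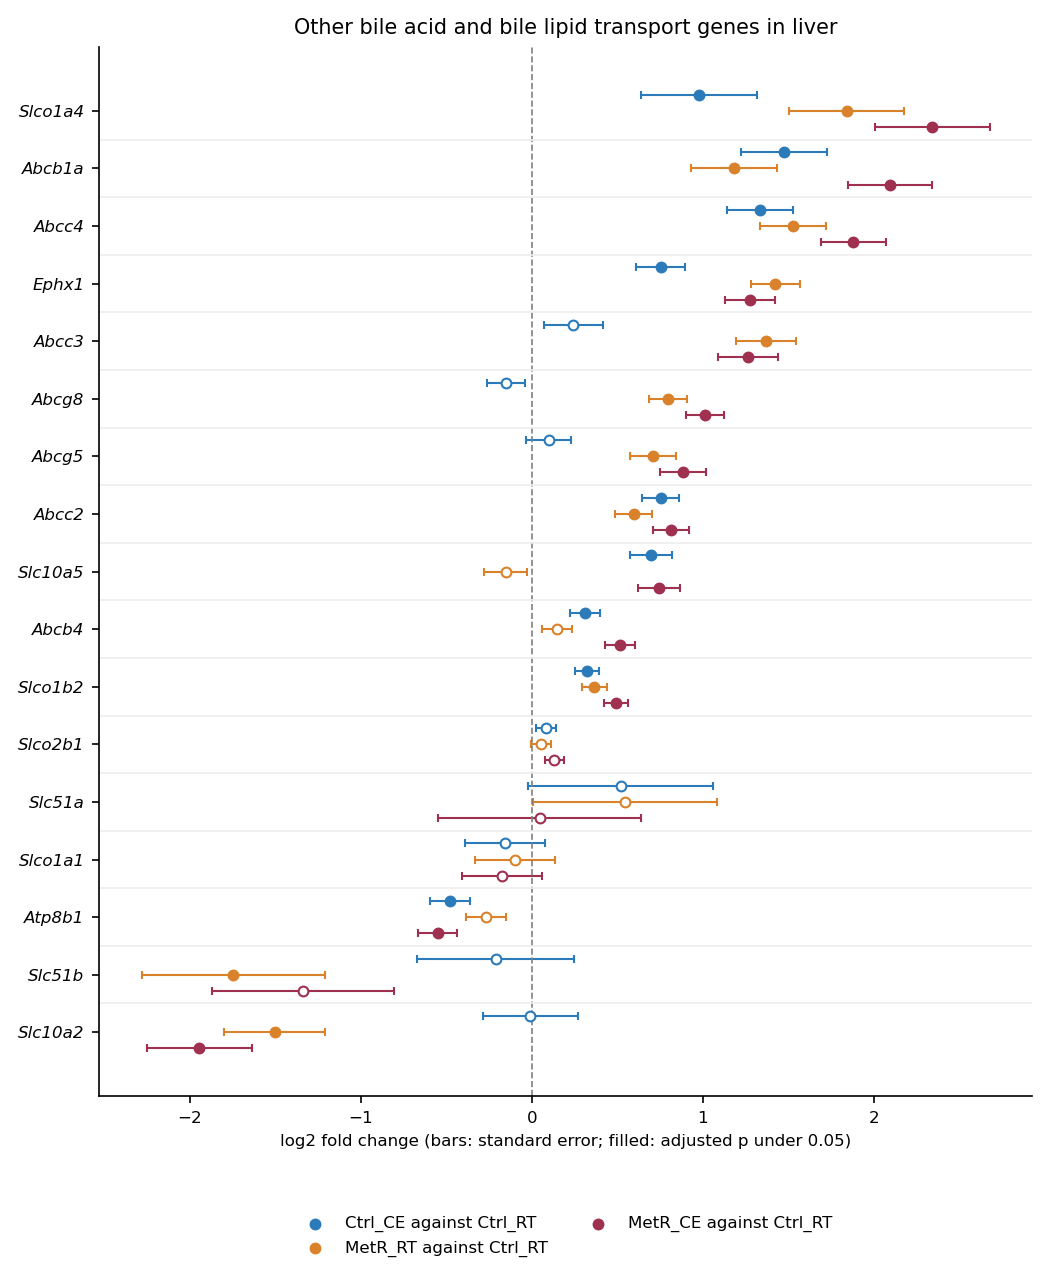
Log2 fold changes of the 17 genes on the list of other transport genes, Abcb1a and Ephx1 included, in liver for Ctrl_CE, MetR_RT and MetR_CE against Ctrl_RT (n = 7 mice per group), ordered by the MetR_CE value. Points are estimates, bars are standard errors and filled points have an adjusted p under 0.05: 11 genes rose in MetR_CE, Slco1a4 the most at 2.34, and 2 fell, Slc10a2 the most at -1.94.

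Of 19 other regulators 18 were tested, Fgf15 being under 10 counts, and 5 rose and 3 fell in Ctrl_CE, 4 rose and 6 fell in MetR_RT, and 7 rose and 3 fell in MetR_CE. Nr1i3, the xenobiotic receptor CAR, went from a mean of 43.7 CPM to 72.6 in Ctrl_CE, and to 94.97 in MetR_RT and 138 in MetR_CE (0.74 ± 0.17, 1.12 ± 0.18 and 1.66 ± 0.18, adjusted p = 0.00173, 2.61e-05 and 1.8e-08). Ppara, the fatty acid receptor, was at 54.6 CPM in both room temperature groups and at 137 and 157 in Ctrl_CE and MetR_CE (1.33 ± 0.17 and 1.53 ± 0.17). Klb, the coreceptor through which FGF15 represses Cyp7a1, rose by 0.80 ± 0.13, 0.81 ± 0.13 and 1.14 ± 0.14. The receptor gene of that pathway, Fgfr4, named after its values were seen, went the other way. It fell by 0.40 ± 0.10 in MetR_RT and by 0.44 ± 0.10 in MetR_CE (adjusted p = 0.00291 and 0.000587). Its Ctrl_CE estimate of -0.21 ± 0.10 did not pass (adjusted p = 0.0932). The coactivator Ppargc1a rose by 1.13 ± 0.20 in Ctrl_CE and by 1.26 ± 0.20 in MetR_CE. Onecut1 fell in MetR_RT (-1.47 ± 0.49, adjusted p = 0.0340). The bile acid receptor gene Gpbar1 was called in MetR_RT (adjusted p = 0.0327), but its mean was 0.0841 CPM in Ctrl_RT and 0 in MetR_RT, about the lowest level that can be read, so no fold is given. Nr5a2, whose core motif stands in the Nr0b2 window, rose by 0.30 ± 0.11, 0.31 ± 0.11 and 0.35 ± 0.11 (adjusted p = 0.0431, 0.0467 and 0.0148), and is named here, after its values were seen, because of that motif. Of 5 genes of taurine supply 4 were tested, and 3 rose in MetR_RT and 1 in each cold group. Csad, the decarboxylase of taurine synthesis, was at 117 CPM in Ctrl_RT and 215 in Ctrl_CE, and at 382 in MetR_RT and 256.6 in MetR_CE (0.88 ± 0.36, 1.71 ± 0.36 and 1.13 ± 0.36, adjusted p = 0.0657, 0.00102 and 0.0159).

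Clock genes and markers of other liver cells also moved with the treatments. Several of the 10 genes are known to vary with the time of day, and in bulk RNA fewer cells of a type and less RNA per cell cannot be told apart. Per the study's methods, all mice were killed in the light phase, within the same hours of the morning. Of 13 clock genes, 8 rose and 2 fell in Ctrl_CE, 5 rose and none fell in MetR_RT, and 8 rose and 4 fell in MetR_CE. The shares of all rows given with the synthesis enzymes stand beside these counts and those of the markers below. Npas2 fell by 2.64 and by 3.01 on the log2 scale and Bmal1 by 1.43 and by 2.16 in Ctrl_CE and MetR_CE, while Per3 rose by 2.16 and 2.58, Ciart by 1.95 and 2.68, Dbp by 1.37 and 1.95 and Per1 by 1.11 and 1.93. In MetR_RT Per3 rose by 1.29 and Dbp by 1.32, and the estimates of Npas2, Bmal1, Ciart and Per1 were -0.17, -0.31, 1.02 and 0.79 and did not pass. The 8 hepatocyte markers, of which 2 rose and 4 fell in Ctrl_CE, 1 rose and 1 fell in MetR_RT, and 1 rose and 5 fell in MetR_CE, summed to 57135 to 88533 CPM in Ctrl_RT and 57277 to 78810 in Ctrl_CE, and to 54833 to 78593 in MetR_RT and 50278 to 57903 in MetR_CE. Endothelial and stellate markers, 10 in all, rose in 9, 5 and 8 cases and fell in 0, 0 and 1, with summed medians of 299.6, 535, 360.0 and 487 CPM. Of 9 Kupffer cell and leukocyte markers 7 rose in Ctrl_CE, 3 fell in MetR_RT and 1 fell in MetR_CE, with summed medians of 267.4, 384, 159.6 and 202 CPM. Of 6 bile duct markers only Sox9 and Spp1 passed, both lower in all 3 contrasts, with summed ranges of 45.8 to 319, 28.6 to 36.9, 27.6 to 34.5 and 21.9 to 26.05 CPM, while Krt19 had means of 0.604 to 1.09 CPM and Cftr was at 0 in 8 libraries. Of 6 adipocyte and pancreas markers 4 were tested, of which 1 fell in Ctrl_CE and none passed in the other 2 contrasts, and Adipoq was at 0 in 18 and Prss2 in 28 of the 28 libraries. The part of these differences in the results for the 10 genes was not tested.

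Outside liver, 1 of the 10 genes was read at a level worth describing. In the adipose libraries of the same mice, 27 of interscapular brown (iBAT), 27 of inguinal white (iWAT) and 28 of epididymal white fat (eWAT), Cyp27a1 was present in every library, with medians of 44.8, 43.2 and 48.8 CPM, which is 11.6%, 11.2% and 12.7% of the liver median. In iBAT it was 46.02 ± 10.4 CPM (SD, n = 6) in Ctrl_RT, 29.2 ± 2.16 (n = 7) in Ctrl_CE, 59.9 ± 8.54 (n = 7) in MetR_RT and 45.1 ± 6.78 (n = 7) in MetR_CE, with groups placed by title, since 3 iBAT libraries carry a treatment tag of another group. The study left out 1 Ctrl_CE library of iBAT without naming it, and all deposited ones were used here. No test was made there, and group values of iWAT and eWAT are not given, so the order of the groups is described for iBAT alone. The medians of the other 9 genes were at most 1.41 CPM in any depot, the highest being Nr1h4 in iWAT, and Cyp7a1 and Nr0b2 were at 0 in all 27 iBAT libraries. In 3 eWAT libraries (Ctrl_CE replicate 6, MetR_CE replicate 5 and MetR_RT replicate 7) Slc10a1, Abcb11 and Slc27a5 lay between 1.14 and 2.79 CPM, against medians of 0.203, 0 and 0.160 over that depot, and the hepatocyte marker Alb was at 149.9, 109.3 and 87.3 CPM there. In eWAT Ctrl_CE replicate 5 and MetR_CE replicate 6, Abcb11 was at 1.86 and 0.922 CPM and Alb at 55.2 and 58.1. Alb was also at 96.2 CPM in iWAT MetR_CE replicate 5, where Slc10a1, Abcb11 and Slc27a5 were at 0.219, 0.0626 and 0.156. Whether any of these libraries held liver reads was not tested.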

How the data were processed

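Per the labels and the study's methods, RNA of liver and 3 fat depots was sequenced and the reads were aligned to mm10 with STAR 2.7.9a. Both featureCounts 2.0.3 and Salmon 1.9.0 are named for gene quantification. The label of the deposited liver table names Salmon, but which of the tools gave its counts was not settled here. The authors deposited raw counts per gene as whole numbers with no normalization. Of 56884 identifiers 51948 matched the reference names without their version and 35 with it, so gene positions, taken from the GRCm38 annotation by identifier, may differ in detail from those the authors counted.

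The 10 genes and all gene lists were chosen with earlier results of these data known. Groups came from sample titles. Rows with at least 10 counts over the 28 liver libraries were fitted with edgeR 4.0.16 in R 4.3.3 (TMM factors, diet, temperature and their interaction, glmQLFTest, Benjamini-Hochberg adjustment). The study used DESeq2, which was run as an alternative (version 1.42.0), beside other scaling, filters, sample sets, a replicate block and each library left out. The 95% intervals are 1.96 SE on either side. Log2 CPM for correlations had a prior count of 2. Fat libraries were described as CPM with no test. Among other list genes, those past the test and 1.5-fold in a contrast against Ctrl_RT were named, at most the 6 with the largest change per list. The fit was tested on simulated data: for Ctrl_CE against Ctrl_RT with 21731 genes it recovered 74% of genes changed 1.5-fold and 96% of those changed 2-fold, and for the interaction 34% and 82%, so a small interaction could be missed. Counts were drawn with the spread typical of a gene's level, not with each gene's own. The shares therefore do not hold for genes that vary more, and Cyp7a1 and Cyp8b1 varied more than the other members. A change of theirs that was not called is not read as none.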

Additional observations from a re-analysis of the deposited data

Results flagged for a closer look

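Of 40 sets of 7 libraries, 1 per gene and group, 6 held a library whose gap to its nearest neighbour in CPM was wide against the range of the set by Dixon's test. Chance gives about 1 in 20 for values that are normally distributed, which skewed CPM need not be, so the number of such libraries is not read against it. On the log2 scale, tried after the values were seen, 4 libraries stood apart in this way, of which 2 were among the 6, Cyp7b1 in MetR_CE replicate 2 and Baat in MetR_CE replicate 1. The other 2 were Cyp7a1 in Ctrl_RT replicate 7, at 2.07 CPM, and Nr0b2 in Ctrl_RT replicate 5, at 21.8 CPM, and neither of the high Cyp7a1 libraries stood apart on that scale. Cyp7a1 stood at 204.6 CPM in Ctrl_CE replicate 1, the next library being at 87.4, and at 201.7 CPM in MetR_CE replicate 5, the next being at 84.5. Cyp8b1 was at 395.8 CPM in MetR_RT replicate 3, against 246.9 in the next. In MetR_CE replicate 2 Cyp7b1 was at 594.4 CPM, against 352.8 in the next. In MetR_CE replicate 1 Nr0b2 was high, at 52.95 CPM against 27.6 in the next, and Baat was low, at 237.0 CPM against 274.8. The effect of MetR on Cyp7b1 differed between the temperatures, by 1.54 on the log2 scale (edgeR, adjusted p = 0.0100).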

How the results depend on the processing

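Of the 22 differences of a member between groups that passed, the interaction included, none reversed, 1 lost its call under another tool, scaling, filter, sample set or the replicate block, and 4 lost it without at least 1 single library. The count of members past the test for the interaction was 2 with DESeq2, where Cyp27a1 joined Cyp7b1, and 1 to 2 when each library was left out. The counts in the other contrasts ranged from 3 to 6 in Ctrl_CE, from 2 to 3 in MetR_RT and from 5 to 7 in MetR_CE against Ctrl_RT when 1 library was left out. The count of member pairs ran from 1 to 6, being 6 without Ctrl_RT replicate 7, and was 3 with Spearman's rho, where Cyp7a1 with Nr1h4 and Cyp8b1 with Baat passed and Cyp8b1 with Slc10a1 did not. With filterByExpr (Cyp7a1 1.36, adjusted p = 0.0484) or only the groups compared (1.38, adjusted p = 0.0437), Cyp7a1 passed in MetR_CE against Ctrl_RT, and with only the groups compared also against MetR_RT (1.39, adjusted p = 0.0130).

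Differences that had not passed changed sign in some settings. Abcb11 in MetR_RT was -0.00047 with filterByExpr. The replicate numbers did not pair the mice (median correlation of same-numbered libraries -0.0062, and 3 of 28 libraries matched best with their own number), and with them as a block the counts were as before, while Cyp7a1 in MetR_RT was 0.14 and the Cyp8b1 interaction 0.098. With 1 library left out, values in MetR_RT ran from -0.24 to 0.44 for Cyp7a1, from -0.047 to 0.0043 for Cyp27a1 and from -0.017 to 0.046 for Abcb11. Baat in MetR_CE against Ctrl_RT ran from -0.018 to 0.055. Against Ctrl_CE, MetR_CE ran from -0.27 to 0.86 for Cyp7a1, from -0.47 to 0.0044 for Cyp8b1, from -0.089 to 0.019 for Baat and from -0.12 to 0.0043 for Nr1h4. The interaction ran from -0.24 to 0.88 for Cyp7a1, from -0.23 to 0.25 for Cyp8b1 and from -0.11 to 0.33 for Nr0b2. For changes other than those of the construction of a setting, the cause was not tested.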
